A study of Mus musculus with 9 samples.

Results

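The genes described here encode 9 chemokine receptors, Ccr1, Ccr2, Ccr6, Cxcr3, Cxcr4, Cxcr5, Cxcr6, Cx3cr1 and Xcr1, measured in sorted mouse leukocytes. They were taken by name from the deposited table, with all 15 of their probe sets that carry a single gene symbol, out of 18193 genes and 34945 such probe sets. A probe set is a group of short oligonucleotides on an Affymetrix array that reads 1 transcript. The 9 arrays covered interferon-producing killer dendritic cells (IKDC), natural killer cells (NK) and conventional dendritic cells (CDC), each sorted from lymph node (1 array per cell type) and from spleen (2 arrays per cell type) of naive BALB/c mice aged 6 to 8 weeks. No treatment or genotype separated the groups, and the sorting gates and the number of animals behind an array are not given in the sources used here.

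Chemokine receptors are G protein-coupled receptors of the cell surface that steer leukocytes along gradients of small secreted proteins, the chemokines. Binding activates inhibitory G proteins, which turn on integrins and the actin skeleton, and kinases and arrestins then silence the receptor. In spleen and lymph node these receptors place cells in T cell zones, follicles and marginal areas, and they recruit NK cells and monocytes to inflamed tissue. XCR1 is a receptor of cross-presenting dendritic cells for a chemokine that NK cells and T cells release.

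Levels are log2 normalized intensities, and a level below 5.31, the 40th percentile of all genes, is read here as near background. A gene is called where its limma p-value, adjusted over the 10916 genes tested, is below 0.05. Because no label ties an array to an animal, the p-values measure only the spread between these arrays, and the number of arrays limits the precision. Arrays are bulk samples, so fewer cells with a transcript and less transcript per cell cannot be told apart. Marker lists separated IKDC and NK from CDC. The mean level of 7 NK markers was 10.86 to 11.27 in IKDC, 11.24 to 11.70 in NK and 6.27 to 7.09 in CDC. The mean of 6 conventional DC markers was 6.92 to 7.37 in IKDC, 5.42 to 6.58 in NK and 10.29 to 10.78 in CDC. Between spleen IKDC and spleen NK, 0 of these 7 and 0 of these 6 markers were called, where 0 of all 10916 genes were. The mean of each of the 6 DC markers was higher in spleen IKDC than in spleen NK (median difference 0.69). That of each of the 7 NK markers was lower (median difference -0.56). Itgax, which encodes the DC marker CD11c, read 11.03 and 11.24 in spleen IKDC and 11.32 and 7.27 in spleen NK, so these groups overlapped. Other markers set 2 lymph node arrays apart. The mean of 7 T cell markers was 8.46 on the lymph node NK array, against 4.39 to 7.29 on the other 8 arrays. The mean of 7 plasmacytoid DC markers was 9.47 on the lymph node IKDC array, against 6.00 to 6.94 on the others. Xist and Eif2s3y, whose levels differ between female and male cells, read 11.43 to 12.49 and 2.76 to 4.28 on the lymph node arrays and spleen arrays 2, but 6.02 to 6.36 and 8.84 to 9.40 on spleen arrays 1. The organ comparisons thus set each lymph node array against 1 spleen array of either kind.

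Of the 9 receptors, 7 passed the filter on dim genes. Ccr1, a receptor for CCL3 and CCL5, and Cxcr5, the receptor for the follicular chemokine CXCL13, did not pass, at mean levels of 5.04 and 5.30 over the 9 arrays. Between spleen IKDC and spleen CDC, 3 of the 7 tested receptors were called, 1 higher and 2 lower in IKDC, where 10.3% of all genes tested were called (4.75% higher and 5.6% lower). Between spleen NK and spleen CDC, 2 of 7 were called, both lower in NK, against 13.5% of all genes (6.54% higher and 6.97% lower). These comparisons share the CDC arrays. Spleen IKDC against spleen NK gave 0 of 7, and limma called 0 of 10916 genes in that comparison (0%), with 598 at an unadjusted p under 0.05. The median difference of the 7 receptors was 0.90 for IKDC minus CDC, 0.89 for NK minus CDC and -0.19 for IKDC minus NK, against medians of 0.04, 0.06 and -0.01 over all genes.

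**Figure D1:**
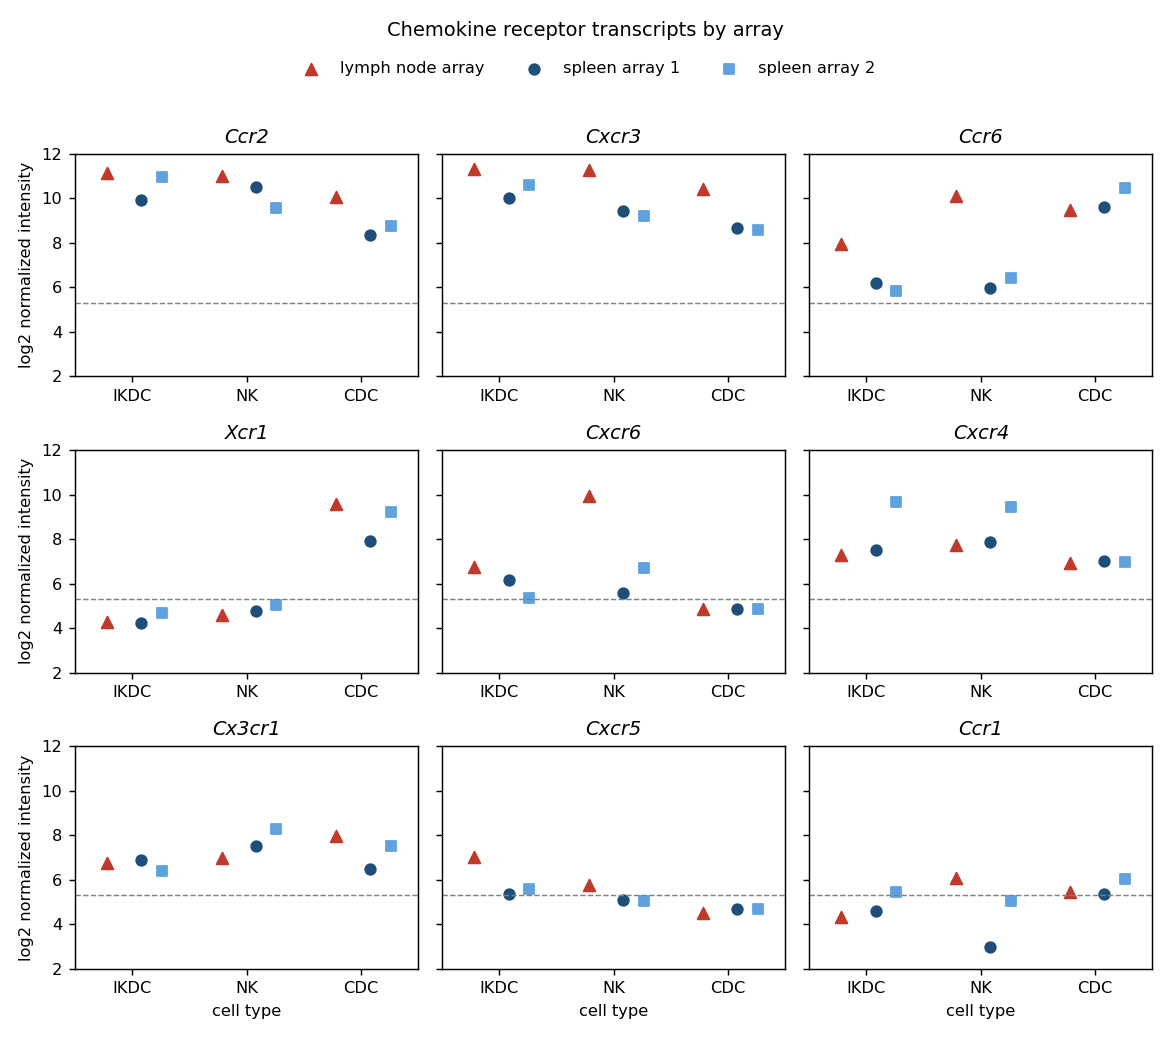
Log2 normalized intensity (y axis) of the 9 receptor genes on each of the 9 arrays, by cell type (x axis). Triangles are lymph node arrays, circles and squares are spleen arrays 1 and 2, and the dashed line is the filter level of 5.31. Xcr1 was above the line only in CDC, and Ccr6 was high in CDC and on the lymph node NK array.

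Xcr1, the receptor for XCL1, read 4.23 and 4.68 on the spleen IKDC arrays, 4.77 and 5.03 on the spleen NK arrays and 7.91 and 9.22 on the spleen CDC arrays. In lymph node it was at 4.26 in IKDC, 4.57 in NK and 9.59 in CDC. All 6 IKDC and NK arrays were thus below the filter level and all 3 CDC arrays far above it. Spleen IKDC averaged 4.45 ± 0.31 and spleen CDC 8.56 ± 0.92 (SD, n = 2 each), a difference of -4.11 ± 0.49 (SE, adjusted p = 0.00423) and at least 9.55-fold. Spleen NK, at 4.90 ± 0.19, differed from CDC by -3.67 ± 0.49 (adjusted p = 0.00496). In lymph node the differences from CDC were -5.33 for IKDC and -5.02 for NK, in the same direction as in spleen. Both calls held in all 15 alternative settings, with adjusted p-values up to 0.0371 for IKDC and 0.0392 for NK.

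The mean level of markers of cross-presenting DC was also highest in CDC. In spleen IKDC 5 of 9 tested members fell below CDC and 0 rose, with Tlr3, a sensor of double-stranded RNA, 28.7-fold lower and Batf3, a transcription factor of this subset, 16.4-fold lower. Over all genes 5.6% fell in this comparison. The mean level of the 9 markers was 7.01 to 7.72 on the IKDC arrays, 6.73 to 6.91 on the NK arrays and 9.74 to 10.52 on the CDC arrays. Not every marker followed this order. Irf8 averaged 12.29 in spleen CDC and 12.27 in spleen NK. Itgae and Ly75 read 10.82 and 8.31 on the lymph node NK array, above their spleen CDC means of 8.85 and 7.05. Of 5 tested markers of another conventional DC subset, 3 fell in spleen IKDC and 4 in spleen NK against CDC, and 0 rose. Over all genes 5.6% fell in IKDC and 6.97% in NK. The genes whose levels followed Xcr1 most closely over the 9 arrays were Ptcd2 (Pearson r = 0.992) and Arhgap28 (r = 0.988). The arrays share cell types and organs, so such correlations are descriptions.

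Xcr1 lies beside Cxcr6 on mouse chromosome 9, with 0 protein-coding genes between them in the RefSeq annotation of GRCm38.p6, and beside Ccr1 on its other side, also with 0 between. The promoter windows of the neighbours Cxcr6 and Xcr1 are shown because the adjacent genes had opposite patterns. Cxcr6, by its brighter probe set, was lowest in CDC and Xcr1 was highest there. Each window holds 250 bases before and 50 after the RefSeq transcription start on GRCm38.p6. The Cxcr6 window is chr9:123806227-123806526 on the plus strand and the Xcr1 window chr9:123861980-123862279 on the minus strand, both printed 5′ to 3′ along the gene.
Cxcr6: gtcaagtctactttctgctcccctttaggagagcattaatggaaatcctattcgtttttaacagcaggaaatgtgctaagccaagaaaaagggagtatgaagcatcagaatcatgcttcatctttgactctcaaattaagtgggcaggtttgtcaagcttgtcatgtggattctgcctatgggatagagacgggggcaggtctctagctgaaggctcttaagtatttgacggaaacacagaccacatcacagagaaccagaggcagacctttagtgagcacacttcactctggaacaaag
Xcr1: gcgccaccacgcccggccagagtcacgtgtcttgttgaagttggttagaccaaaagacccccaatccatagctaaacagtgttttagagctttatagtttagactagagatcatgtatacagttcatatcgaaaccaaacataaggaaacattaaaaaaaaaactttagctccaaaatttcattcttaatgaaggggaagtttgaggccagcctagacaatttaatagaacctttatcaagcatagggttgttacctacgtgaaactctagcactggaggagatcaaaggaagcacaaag
Of 5 motifs searched on both strands, none matched in either window. They were GGTGTGA (T-box), TGTGGTT (RUNX), AGGAAGT (ETS), a composite of ETS and IRF letters, and TGANTCA (AP-1), which 3.98%, 5.27%, 9.35%, 2.72% and 7.81% of the 32851 RefSeq promoter windows hold. Windows were found for 8 of the 9 receptors.

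Ccr6, the receptor for CCL20, which guides B cells, some T cells and dendritic cells to mucosal follicles, followed Xcr1 in spleen but not in lymph node. It read 6.20 and 5.84 on the spleen IKDC arrays, 5.98 and 6.44 on the spleen NK arrays and 9.61 and 10.45 on the spleen CDC arrays. In lymph node it read 7.94 in IKDC, 10.09 in NK and 9.49 in CDC. The lymph node NK array therefore stood with the CDC arrays. In spleen IKDC, Ccr6 averaged 6.02 ± 0.25, against 10.03 ± 0.60 in spleen CDC (SD, n = 2 each), which was 16.1-fold lower (-4.01 ± 0.37 SE, adjusted p = 0.00197). Spleen NK averaged 6.21 ± 0.33 and was 14.1-fold lower than CDC (-3.82 ± 0.37, adjusted p = 0.00155). In spleen, 2 of 4 tested B cell markers fell, like Ccr6, in IKDC and in NK against CDC, and 0 rose. Over all genes 5.6% fell in IKDC and 6.97% in NK. Blk, a kinase of B cell receptor signalling, read 5.50 and 4.85 in spleen IKDC, 5.33 and 5.42 in spleen NK and 8.01 and 8.04 in spleen CDC. Ms4a1, which encodes CD20, read 5.39 and 5.05 in spleen IKDC, 5.99 and 5.23 in spleen NK and 7.12 and 7.68 in spleen CDC. The mean of the 9 B cell markers was 4.44 and 4.89 in spleen IKDC, 4.74 and 5.04 in spleen NK and 5.56 and 6.13 in spleen CDC, with 2 and 2, 3 and 3, and 5 and 7 of them above the filter level. Cd79a was at 5.19 and 4.52 in spleen CDC, below that level. Pax5, a dim marker that was not tested, read 3.95 and 5.52 in spleen CDC and 5.12 and 6.29 in spleen NK. On the lymph node CDC array Ccr6 read 9.49, Blk 5.45, Ms4a1 6.20 and the mean of the B cell markers 5.66. The part of B cells in the Ccr6 difference was not tested.

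Between the lymph node arrays Ccr6 differed by -1.56 for IKDC minus CDC and by 0.60 for NK minus CDC, so the NK difference had the opposite sign to that in spleen. The test of that organ effect gave 4.42 ± 0.64 for NK minus CDC (adjusted p = 0.474), and it called 0 of 10916 genes, with 583 at an unadjusted p under 0.05. In a model with additive terms for organ and cell type, Ccr6 in NK minus CDC was -2.35 ± 0.74 (adjusted p = 0.052), and in IKDC minus CDC it was -3.19 ± 0.74 (adjusted p = 0.0177). The lymph node NK array was 4.12 above spleen NK array 1 and 3.65 above spleen NK array 2, a difference of 3.88 ± 0.46 (adjusted p = 0.19). Lymph node IKDC was 1.91 ± 0.46 above spleen IKDC (adjusted p = 0.335).

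The mean of the T cell markers was highest on the lymph node NK array, where Ccr6 was also high. All 7 were above the filter level there, against 4 and 5 of 7 on the spleen NK arrays. Cd3e, a chain of the T cell receptor complex, read 8.15 on the lymph node NK array and 5.04 and 5.85 on the spleen NK arrays. Cd6, a receptor of mature T cells, read 6.01 on the lymph node NK array and 3.39 and 3.11 on the spleen NK arrays. Other markers differed less, with Lat at 9.30 against 9.07 and 9.36, and Cd28 at 10.26 against 9.99 and 9.50. On the lymph node IKDC array, where Ccr6 was 1.91 above spleen IKDC, the T cell marker mean was 6.78. It was 6.88 and 7.29 on the spleen IKDC arrays. Over the 9 arrays the gene closest to Ccr6 was Cd5, a receptor of T cells and some B cells, with Pearson r = 0.978, followed by Klk8 (r = 0.957). Cd5 read 7.38 on the lymph node NK array, but also 6.90 and 7.30 in spleen CDC and 6.61 in lymph node CDC. Whether T cells had a part in the Ccr6 level of the lymph node NK array was not tested.

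**Figure D2:**
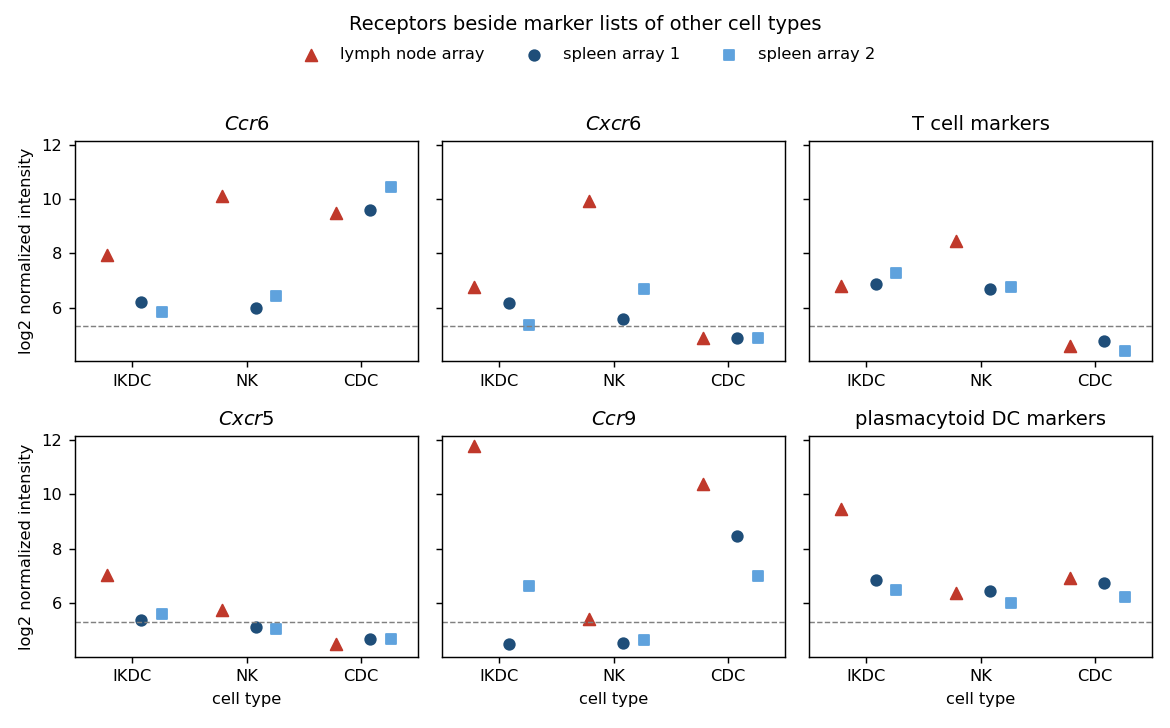
Log2 normalized intensity (y axis) of 4 receptor genes and the mean of 2 marker lists, by cell type (x axis) and array. Triangles are lymph node arrays, and circles and squares are spleen arrays 1 and 2, with a dashed line at 5.31. The lymph node NK array was highest for Cxcr6 and for the T cell markers, at 9.92 and 8.46, and the lymph node IKDC array was highest for Cxcr5, Ccr9 and the plasmacytoid DC markers, at 7.04, 11.78 and 9.47.

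Cxcr6, the receptor for the membrane-bound chemokine CXCL16 and known from activated T cells, NKT cells and tissue-resident NK cells, was the other receptor that stood out on the lymph node NK array. It read 9.92 there, 6.75 on the lymph node IKDC array and 4.88 on the lymph node CDC array. In spleen it read 6.18 and 5.36 in IKDC, 5.57 and 6.68 in NK and 4.88 and 4.86 in CDC. These levels are of its brighter probe set, by which the 3 CDC arrays were below the filter level. All 6 IKDC and NK arrays were above it, spleen IKDC array 2 only narrowly. The deposited intensity of this probe set was 938 on the lymph node NK array, against 35.9 and 93.3 on the spleen NK arrays, and the other Cxcr6 probe set read 1070, against 10.9 and 49.8. By that other probe set, spleen IKDC array 2, at a level of 3.95, and spleen NK array 1, at 4.28, were below the filter level. Both were also below the lymph node CDC array, at 4.81, and above the spleen CDC arrays, at 3.49 and 3.91. Lymph node NK exceeded spleen NK by 3.79 ± 0.59, which is 13.8-fold (adjusted p = 0.248, not called). The organ effect on NK minus CDC was 3.78 ± 0.84 (adjusted p = 0.645), and that on IKDC minus NK was -2.81 ± 0.84 (adjusted p = 1).

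In spleen alone, Cxcr6 differed by 0.90 ± 0.48 for IKDC minus CDC (adjusted p = 0.341) and by 1.25 ± 0.48 for NK minus CDC (adjusted p = 0.164). The additive model across both organs, which called 22% of all genes between NK and CDC (11.4% higher and 10.7% lower), gave 2.52 ± 0.71 for NK minus CDC (adjusted p = 0.0322). That value rests on the lymph node pair, which differed by 5.04, where spleen arrays 1 and 2 differed by 0.69 and 1.82. The genes closest to Cxcr6 were Cish, a suppressor of cytokine signalling (r = 0.966), and Il20ra (r = 0.964). The T cell marker values of the lymph node NK array, given with Ccr6, apply here too.

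Cxcr3, the receptor for the interferon-induced chemokines CXCL9 and CXCL10, was the receptor that rose in spleen IKDC. It read 10 and 10.62 in spleen IKDC, 9.43 and 9.19 in spleen NK and 8.68 and 8.60 in spleen CDC. The 3 spleen groups did not overlap, with IKDC highest, NK next and CDC lowest. Spleen IKDC averaged 10.31 ± 0.44 and spleen CDC 8.64 ± 0.06 (SD, n = 2 each), so Cxcr3 was 3.17-fold higher in IKDC (1.67 ± 0.28 SE, adjusted p = 0.0147). The call was lost without spleen CDC array 1 (adjusted p = 0.0899) and without spleen CDC array 2 (adjusted p = 0.121), while the difference stayed at 1.69 and 1.63. Spleen NK, at 9.31 ± 0.17, differed from CDC by 0.67 ± 0.28 (adjusted p = 0.2). Spleen IKDC exceeded spleen NK by 1.00 ± 0.28 (adjusted p = 0.857), by 0.56 between arrays 1 and by 1.43 between arrays 2, but by 0.03 between the lymph node arrays.

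All lymph node arrays carried more Cxcr3 than their spleen counterparts. Cxcr3 read 11.31 in lymph node IKDC, 11.28 in lymph node NK and 10.42 in lymph node CDC, each above both spleen arrays of its cell type. The difference was 1.00 ± 0.35 in IKDC (adjusted p = 0.624), 1.97 ± 0.35 in NK (adjusted p = 0.352) and 1.78 ± 0.35 in CDC (adjusted p = 0.145), none of them called. With 1 organ term for the 3 cell types, Cxcr3 rose by 1.58 ± 0.23 in lymph node (adjusted p = 0.0202), the only 1 of the 7 receptors called where 0.806% of all genes were (0.366% higher and 0.44% lower). That call was lost when any 1 of the spleen NK or spleen CDC arrays was left out, at adjusted p-values of 0.0504 to 0.0687, with differences of 1.51 to 1.57. Cxcr3 is X-linked, and against spleen arrays 2 alone, which were like the lymph node arrays in Xist, the lymph node differences were 0.69 in IKDC, 2.09 in NK and 1.82 in CDC.

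The promoter window of Cxcr3, chrX:101734098-101734397 on the minus strand of GRCm38.p6, is shown because this receptor differed by cell type and organ. Capitals mark the RUNX and ETS matches.
Cxcr3: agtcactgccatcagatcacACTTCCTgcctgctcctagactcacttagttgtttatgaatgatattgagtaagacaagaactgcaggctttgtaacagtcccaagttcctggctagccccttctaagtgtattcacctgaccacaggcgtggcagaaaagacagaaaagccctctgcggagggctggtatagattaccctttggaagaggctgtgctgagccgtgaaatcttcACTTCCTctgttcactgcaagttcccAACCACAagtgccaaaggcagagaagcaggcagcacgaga
The ETS letters AGGAAGT occurred on the opposite strand at bases 21 to 27 and 235 to 241 of the window, and the RUNX letters TGTGGTT on the opposite strand at bases 261 to 267. No match overlapped another. The only other match among the receptors' windows was AGGAAGT in 1 of the Ccr6 windows. A match describes the letters and not a bound site.

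Ccr2, the receptor for CCL2, brings monocytes out of the bone marrow and recruits monocytes and NK cells to inflamed tissue. By its brightest probe set, Ccr2 was higher in IKDC and NK arrays than in CDC arrays of the same organ. The brightest probe set read 9.92 and 10.97 in spleen IKDC, 10.53 and 9.56 in spleen NK and 8.34 and 8.76 in spleen CDC, and 11.13, 11.02 and 10.08 in lymph node IKDC, NK and CDC. The spleen IKDC and NK arrays overlapped each other and did not overlap the spleen CDC arrays. The difference was 1.90 ± 0.47 for IKDC minus CDC (adjusted p = 0.0529) and 1.49 ± 0.47 for NK minus CDC (adjusted p = 0.0929), so neither was called. Each was called in 4 of 15 alternatives. Across both organs the additive model gave 1.61 ± 0.35 for IKDC minus CDC (adjusted p = 0.0128, with 17.4% of all genes called, 9.19% higher and 8.19% lower) and 1.31 ± 0.35 for NK minus CDC (adjusted p = 0.027).

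The 4 probe sets of Ccr2 differed in how far they separated the cell types. Probe set 1421187_at read 8.40 and 9.39 in spleen IKDC, 9.48 and 8.62 in spleen NK and 6.02 and 6.62 in spleen CDC, and it was called for IKDC minus CDC (2.58, adjusted p = 0.0219) and NK minus CDC (2.73, adjusted p = 0.0141). With each probe set as a feature, 7.55% and 10.1% of probe sets were called in these comparisons. Probe set 1460067_at was called for NK minus CDC (1.32, adjusted p = 0.046) and not for IKDC minus CDC (1.01, adjusted p = 0.124). Probe set 1421188_at differed by 0.73 and 0.25 (adjusted p = 0.453 and 0.831), and by it the lymph node NK array, at 8.10, was below the lymph node CDC array, at 8.56. The lymph node CDC array read 6.29 by 1421187_at, between its spleen arrays, but 10.08 by the brightest probe set, above both of them. All 4 probe sets are assigned to Ccr2 alone in the platform annotation.

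**Figure D3:**
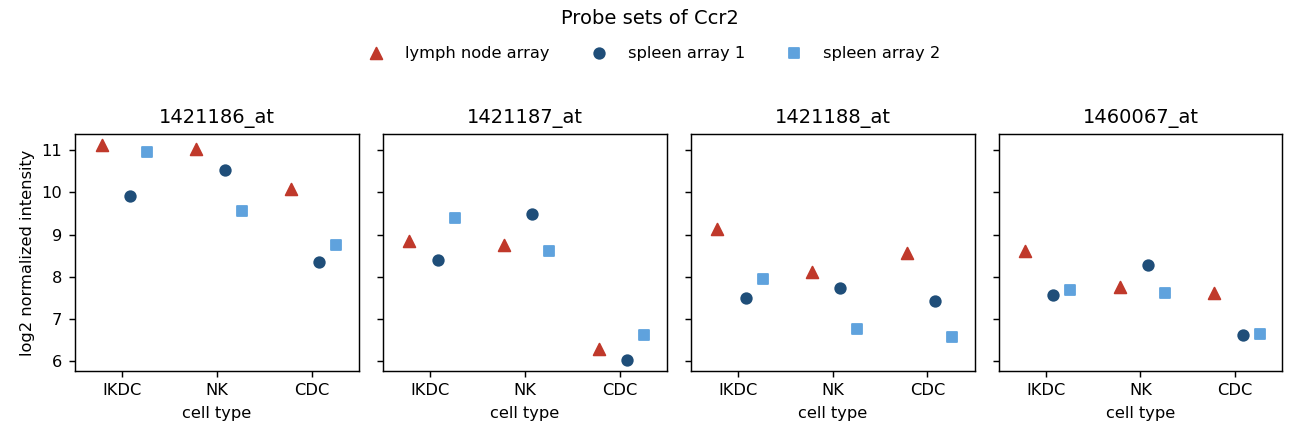
Log2 normalized intensity (y axis) of the 4 Ccr2 probe sets by cell type (x axis). Triangles are lymph node arrays, and circles and squares are spleen arrays 1 and 2. Probe set 1421187_at separated all 3 CDC arrays, at 6.02 to 6.62, from all IKDC and NK arrays, at 8.40 to 9.48.

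Cxcr4, the receptor for CXCL12 that holds leukocytes in bone marrow and is widely expressed, differed between the replicate arrays of spleen IKDC and NK by about as much as between cell types. It read 7.52 and 9.65 in spleen IKDC, 7.86 and 9.45 in spleen NK and 7.01 and 6.96 in spleen CDC. In both IKDC and NK the spleen array 2 was the higher, by 2.13 and 1.59, while array 2 minus array 1 was -0.05 in CDC. The mean of 8 monocyte and macrophage markers was also higher on arrays 2, with arrays 1 and 2 at 6.67 and 7.59 in spleen IKDC, 5.53 and 7.45 in spleen NK and 7.51 and 7.84 in spleen CDC. Lyz2, a lysozyme of these cells, read 8.09 and 9.65 in spleen IKDC, 6.42 and 10.05 in spleen NK and 10.76 and 10.75 in spleen CDC. In lymph node IKDC, NK and CDC the mean of these markers was 7.13, 6.35 and 8.30, and Lyz2 read 10.63, 9.45 and 12.46. Cxcr4 read 7.28, 7.74 and 6.91 on these arrays, in the same order as spleen arrays 1. Spleen arrays 1 and 2 also differed in Xist and Eif2s3y in each cell type. The part of monocytes and macrophages in the Cxcr4 levels was not tested. For Cxcr4 in spleen, IKDC minus CDC was 1.60 ± 0.78 (adjusted p = 0.289) and NK minus CDC 1.67 ± 0.78 (adjusted p = 0.242). Without spleen IKDC array 1 the first became 2.67 (adjusted p = 0.0379), and without spleen IKDC array 2 it became 0.52. The nearest genes over the 9 arrays were Mief2 (r = 0.971) and Sars, a transfer RNA ligase (r = 0.968), and both were highest on the array 2 of spleen IKDC or NK.

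Cx3cr1, the receptor for fractalkine and a marker of mature NK cells and of resident monocytes and macrophages, read 6.90 and 6.40 in spleen IKDC, 7.53 and 8.28 in spleen NK and 6.50 and 7.52 in spleen CDC. In lymph node it read 6.74 in IKDC, 6.99 in NK and 7.95 in CDC. Spleen IKDC lay below spleen NK on both array numbers, with a difference of -1.25 ± 0.45 (adjusted p = 0.857), and between the lymph node arrays the difference was -0.25. NK minus CDC was 0.89 ± 0.45 in spleen (adjusted p = 0.284), while the lymph node arrays differed by -0.97. A dimmer Cx3cr1 probe set stayed at 2.87 to 4.19 on all arrays. Fcgr2b, an inhibitory Fc receptor, was the gene closest to Cx3cr1 (r = 0.943).

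The dim receptors Cxcr5 and Ccr1 were not tested at the chosen filter, and their p-values here come from the fit without it. Cxcr5 read 5.38 and 5.58 in spleen IKDC, 5.10 and 5.03 in spleen NK and 4.68 and 4.69 in spleen CDC, and 7.04, 5.75 and 4.50 in lymph node IKDC, NK and CDC. The lymph node IKDC array was the only one clearly above the filter level, 1.56 ± 0.44 above spleen IKDC (adjusted p = 0.655). On that array the plasmacytoid DC markers Siglech, a surface lectin, and Cox6a2 read 10.78 and 11.43, against 5.45 and 6.51 and against 7.20 and 7.20 on the spleen IKDC arrays. Of the 9 B cell markers 5 were above the filter level there, as against 2 on each spleen IKDC array. Their mean level was 6.09, against 4.44 and 4.89. Among them, Fcrla read 9.93 there, against a spleen IKDC mean of 4.93. Cd79a, a signalling chain of the B cell receptor, stayed below the filter level at 5.25. On spleen CDC array 2 and the lymph node CDC array, 7 of the 9 were above that level, with means of 6.13 and 5.66. Cxcr5 read only 4.69 and 4.50 on those CDC arrays. The part of plasmacytoid DC or B cells in the Cxcr5 level was not tested. Ccr1 read 4.59 and 5.44 in spleen IKDC, 2.99 and 5.06 in spleen NK and 5.36 and 6.04 in spleen CDC, and 4.34, 6.07 and 5.47 in lymph node IKDC, NK and CDC. Its difference from spleen CDC was -0.68 in IKDC (adjusted p = 0.721) and -1.68 in NK (adjusted p = 0.297). By this probe set, the brighter of 2, the spleen NK and CDC arrays did not overlap, while the lymph node NK array was above the lymph node CDC array. Neither held by the dimmer Ccr1 probe set, which was near background on all arrays. It read 3.71 and 4.47 in spleen NK and 4.44 and 3.86 in spleen CDC. In lymph node it read 4.63 in NK and 4.80 in CDC.

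**Figure D4:**
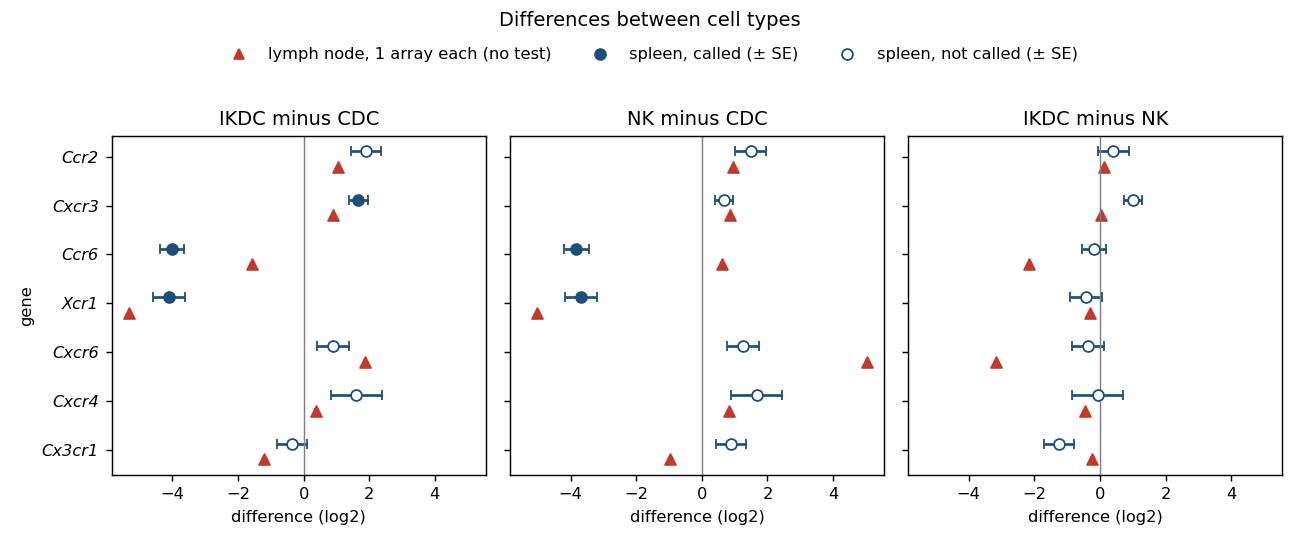
Differences in log2 normalized intensity (x axis) between cell types for the 7 tested receptors (y axis). Circles are spleen differences with SE from limma, filled where the adjusted p was below 0.05, and triangles are the differences between single lymph node arrays. Xcr1 lay below -3.6 in IKDC and NK against CDC in both organs, whereas the lymph node NK minus CDC difference was 0.60 for Ccr6 and 5.04 for Cxcr6.

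The order of the 6 groups differed from gene to gene. Ccr2, by its brightest probe set, and Cxcr3 ran most alike, with Pearson r = 0.89 over the 9 arrays, and Xcr1 and Ccr6 had r = 0.69. Xcr1 ran against Ccr2 (r = -0.66) and Cxcr5 (r = -0.70). For Ccr2, by that probe set, and Cxcr3 the highest group was lymph node IKDC, with lymph node NK lower by 0.12 and 0.03. The lowest was spleen CDC. By 1421187_at, Ccr2 read 8.85 in lymph node IKDC, 9.48 and 8.62 in spleen NK, 6.29 in lymph node CDC and 6.02 and 6.62 in spleen CDC. For Ccr6 the lowest groups were spleen IKDC and spleen NK, which differed by 0.19 in size with an SE of 0.37. Xcr1 placed lymph node CDC highest, 1.03 ± 0.60 above spleen CDC (adjusted p = 0.542), and its 4 IKDC and NK groups were all near background.

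Between organs, 0 of the 7 receptors were called within IKDC, NK or CDC. Limma called 0 of 10916 genes in lymph node IKDC minus spleen IKDC (0%, 744 at an unadjusted p under 0.05), 0 in lymph node NK minus spleen NK (0%, 628) and 3 in lymph node CDC minus spleen CDC (0.0275%). With the array number as a block, Ccr6 in NK was called (3.88, adjusted p = 0.0389), and the counts over all genes were 126, 15 and 173. These tests take the spread of a lone lymph node array to be that of the spleen pairs. The median difference of the receptors was 0.69 in IKDC, 0.97 in NK and 0.94 in CDC, against 0.01, -0.05 and -0.02 over all genes. The IKDC and NK medians were the Ccr2 values by its brightest probe set. With the Ccr2 values of probe set 1421187_at, -0.05, -0.31 and -0.03, the median would be lower in each cell type, so these medians describe no shared rise. By its brightest probe set Ccr2 was 0.69 ± 0.57, 0.97 ± 0.57 and 1.53 ± 0.57 higher in the lymph node arrays of IKDC, NK and CDC, and Cxcr4 -1.30 ± 0.95, -0.92 ± 0.95 and -0.08 ± 0.95. Cxcr3 was above both spleen arrays in each of the 3 cell types, and so was Ccr2 by its brightest probe set. By probe set 1421187_at the Ccr2 differences were -0.05, -0.31 and -0.03 in IKDC, NK and CDC, and by 1460067_at 0.98, -0.19 and 0.97.

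**Figure D5:**
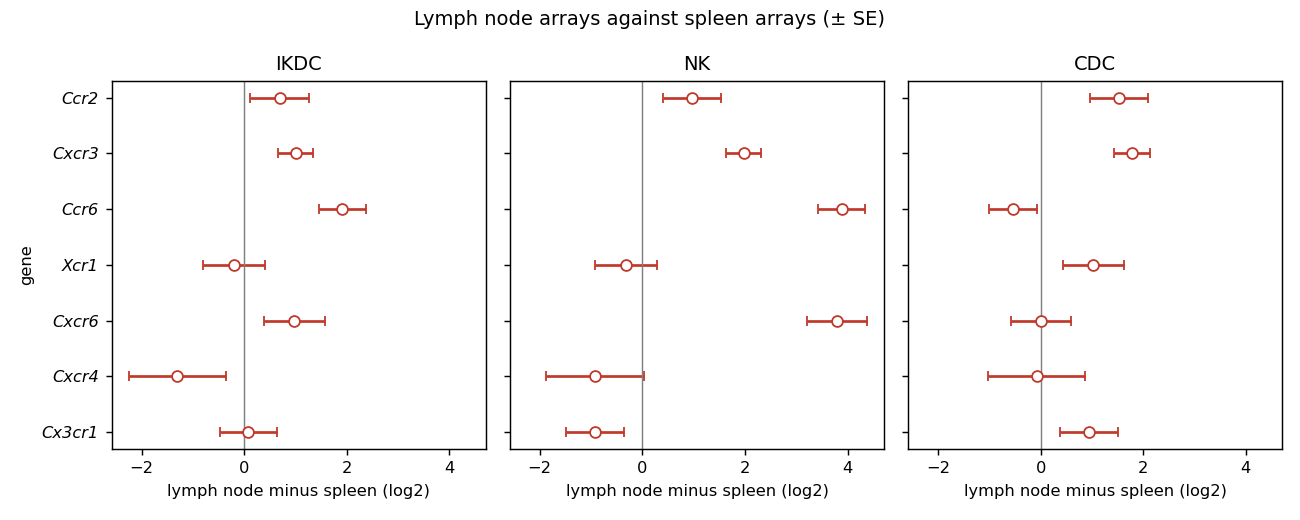
Lymph node minus spleen differences in log2 normalized intensity (x axis) with SE from limma for the 7 tested receptors (y axis), in IKDC, NK and CDC. Open circles mark that no difference was called. Ccr6 and Cxcr6 in NK were farthest from 0, at 3.88 and 3.79.

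The ligands of these receptors were set beside them. Of 14 tested ligand genes, 4 rose in spleen IKDC against CDC and 0 fell, with a median difference of 0.50, and in spleen NK 4 rose and 1 fell, with a median of 0.74. Over all genes 4.75% rose and 5.6% fell in IKDC, and 6.54% rose and 6.97% fell in NK. Xcl1, the ligand of XCR1, read 11.32 and 9.63 in spleen IKDC, 10.39 and 9.40 in spleen NK and 6.75 and 4.29 in spleen CDC, and 10.24, 10.39 and 4.98 in lymph node IKDC, NK and CDC. All IKDC and NK arrays were above all CDC arrays, the reverse of the order of Xcr1. The difference was 31.1-fold for IKDC minus CDC (4.96 ± 0.91, adjusted p = 0.0188) and 20.7-fold for NK minus CDC (4.37 ± 0.91, adjusted p = 0.0244). Ccl3 and Ccl4, ligands of inflammatory receptors such as CCR1, were 6.59-fold and 11-fold higher in spleen IKDC than in CDC, and 8.86-fold and 17.4-fold higher in spleen NK. Ccl5 was 3.70-fold higher in IKDC than in CDC.

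Cxcl9, a ligand of CXCR3, read 4.86 and 7.32 in spleen IKDC, 3.46 and 6.81 in spleen NK and 10.19 and 10.29 in spleen CDC. It was at least 30.6-fold lower in spleen NK than in CDC (-5.11 ± 1.19, adjusted p = 0.0367). In lymph node it read 4.77 in IKDC, 4.27 in NK and 11.55 in CDC, so Cxcl9 was highest in CDC in both organs, where Cxcr3 was lowest.

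Of 20 tested genes of the G protein, integrin and actin relay, 2 rose and 0 fell in spleen IKDC against CDC, and the same counts held for NK, shares no higher than the 10.3% and 13.5% of all genes called. The 2 were Rac2, a GTPase of the leukocyte actin skeleton, 2.31-fold and 2.65-fold higher in IKDC and NK, and Rasgrp2, an activator of the integrin switch RAP1, 2.86-fold and 5.13-fold higher. Of 13 tested genes that switch receptors off, 3 rose and 3 fell in IKDC, and 4 rose and 3 fell in NK, beside the same shares of all genes. Grk3, a kinase that silences activated receptors, was 12.9-fold lower in IKDC (-3.69 ± 0.36, adjusted p = 0.00222) and 17.4-fold lower in NK. Rgs16, a brake on G protein signalling, read 11.11 and 10.02 in spleen IKDC, 10.75 and 8.44 in spleen NK and 6.49 and 4.46 in spleen CDC, where array 2 was below the filter level. By these means it was 34.2-fold higher in IKDC (5.10 ± 0.94, adjusted p = 0.0196) and 17.4-fold higher in NK. Rgs10, another such brake, was 6.60-fold and 6.73-fold lower in IKDC and NK. The medians of both lists lay between -0.55 and 0.05 in these comparisons. Of 5 other chemoattractant receptors tested, 1 rose and 0 fell in spleen IKDC against CDC, and 1 rose and 1 fell in spleen NK. The same shares of all genes stand beside these counts. The median differences of the 5 were -1.14 in IKDC and -1.52 in NK, against 0.04 and 0.06 over all genes. The receptor that rose was Cmklr1, the receptor for chemerin. It was at least 5.92-fold higher in IKDC and at least 13.7-fold higher in NK than in CDC.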

How the data were processed

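The deposited table holds linear signal intensity per probe set of 9 Affymetrix arrays; per the labels, 6 µg of total RNA went into each biotinylated target. The authors had scaled the arrays, whose trimmed mean intensity was 150 on each; the sources used here do not name the software. With 6.49 (the 20th percentile) added before log2, the 45101 probe sets less 64 controls were quantile normalized. Probe sets with several symbols (932) or none (9160) were not used. Each gene took its brightest probe set, and 10916 of 18193 genes at or above the 40th percentile were tested.

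Groups were compared by limma (version 3.58.1, R 4.3.3; lmFit and eBayes with a trend) over 6 groups, with 3 residual degrees of freedom, two-sided and adjusted by Benjamini and Hochberg. The fit was tested on simulated data. Plots used Python 3.11.15 with matplotlib 3.10.9. Folds are "at least" where the lower mean was under 5.31. The alternatives were other normalizations, offset, filter, probe set summary, spread and models, and leaving out each spleen array. The members and lists were chosen with earlier results of these data known. All 9 receptors were named, of each list up to 4 called genes with the largest differences, and the 2 genes closest to each tested receptor by Pearson r; further genes were chosen after their values were seen.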

Additional observations from a re-analysis of the deposited data

How the results depend on the processing

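In spleen, Xcr1 and Ccr6 in IKDC minus CDC and Xcr1 in NK minus CDC kept their direction and call under all 15 alternatives, at -4.75 to -3.09, -4.4 to -3.19 and -4.31 to -2.87. The receptors called in IKDC minus CDC numbered 2 to 5 when 1 spleen array was left out, with 5 (Ccr2, Ccr6, Cxcr3, Cxcr4 and Xcr1) without spleen IKDC array 1. The receptors called by the single organ term numbered 0 without either spleen NK or either spleen CDC array, and the range was 0 to 1. Array numbers 1 and 2 recur in the spleen groups, but no label says that they mark shared animals or days. The deviations of same-numbered arrays correlated across genes at r = 0.485 for IKDC and NK, 0.529 for IKDC and CDC and 0.412 for NK and CDC, and Xist split the numbers in all 3 cell types. With a replicate block, 1 receptor was called in lymph node minus spleen NK (Ccr6, 3.88, adjusted p = 0.0389), and Ccr2 in IKDC minus CDC was called (1.90, adjusted p = 0.0299).

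Counts over all genes moved more. With 1 array left out, they were 329 to 1422 in IKDC minus CDC (1129 with all arrays) and 479 to 1957 in NK minus CDC (1475). The additive model called 1897 and 2404, and the block 1883 and 2318. Lymph node minus spleen IKDC (0 with all arrays) gave 126 with the block, 46 with an offset of 32, 18 with the mean of probe sets and 0 to 14 with an array left out. In NK (0) the counts were 15, 1 with that offset, 1 without the filter and 0 to 3. In CDC (3) they were 173 with the block, 5 with a 75th percentile shift, 1 with that offset, 0 without the filter, 8 with the mean of probe sets, 1 with each probe set as a feature, 0 without a trend and 0 to 19. The single organ term called 88, against 222 with each probe set as a feature, 344 with the block and as few as 26 with an array left out.

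Reversals touched only uncalled differences. Xcr1 in lymph node minus spleen IKDC became 0.24 without quantile normalization, 0.13 with a 75th percentile shift and up to 0.03 with an array left out. Cxcr4 in lymph node minus spleen CDC became 0.05 without quantile normalization. Cx3cr1 in lymph node minus spleen became -0.05 in IKDC and -0.06 over all cell types with the mean of probe sets. With an array left out, IKDC minus NK ranged from -1.13 to 0.99 for Cxcr4, from -0.12 to 0.92 for Ccr2, from -0.91 to 0.20 for Cxcr6 and from -0.42 to 0.05 for Ccr6. Cx3cr1 ranged from -0.87 to 0.15 in IKDC minus CDC, from -0.16 to 0.34 in lymph node minus spleen IKDC and from -0.18 to 0.23 over all cell types, and Xcr1 from -0.09 to 0.27 over all cell types. The lowest Xcr1 value in lymph node minus spleen IKDC was -0.42. The causes were not tested. Ccr1, Cxcr5 and Xcr1 outside CDC lie near background, where a fold is a bound.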

Other observations

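Among the other chemoattractant receptors, 3 genes were chosen after their values were seen, of which only Ccrl2 was called between organs, by the single organ term. Ccr9, a homing receptor of gut T cells and plasmacytoid DC, read 11.78 in lymph node IKDC and 4.48 and 6.64 in spleen IKDC, a difference of 6.22 ± 0.94 (adjusted p = 0.0973, not called). The plasmacytoid DC marker Siglech read 10.78 on the same lymph node array, and its part in the Ccr9 level was not tested. In CDC, Ccr9 read 10.37 in lymph node and 8.46 and 6.99 in spleen. Ccrl2, a chemerin-binding receptor that does not signal, read 6.79, 7.61 and 8.20 in lymph node IKDC, NK and CDC, against 9.74 and 9.62, 10.62 and 10.39, and 10.53 and 11.12 in the matching spleen arrays. With 1 organ term for the 3 cell types, Ccrl2 fell by 2.81 in lymph node (SE 0.18, adjusted p = 0.000327).

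Ccr7, which guides mature DC and naive lymphocytes into lymph nodes, read 6.88, 6.22 and 9.17 in lymph node IKDC, NK and CDC. In spleen it read 5.91 and 6.23 in IKDC, 5.34 and 3.12 in NK and 6.25 and 8.22 in CDC, and none of its organ differences was called. The ligands Ccl3 and Ccl4 fell in lymph node in the same model by 2.54 (adjusted p = 0.0156) and 2.13 (adjusted p = 0.0277). Cxcl16, the ligand of CXCR6, read 10.61 in lymph node CDC and 7.76 and 8.56 in spleen CDC, a difference of 2.45 ± 0.56 (adjusted p = 0.192).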
